A study of Homo sapiens with 19 samples.

Results

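Total knockdown of RBFOX2 was compared with knockdown of its N-long isoform in HUES66 cells, a human embryonic stem cell line, to ask what total knockdown adds beyond loss of the N-long isoform. The libraries were chosen by their titles: 3 of total knockdown (total KD; genotype RBFOX2 total knockdown) and 4 in which the N-long isoform was knocked down (N-long KD; genotype RBFOX2 isoform knockdown), 7 of the 19 samples in the series. The cells of both groups had received 1 µg/ml doxycycline for 24, 48 or 96 hr, and the series title names Cas13d, an RNA-cleaving enzyme steered by guide RNAs. The groups met in 3 library sets (24 hr replicate 1, 48 hr and 96 hr), with 1 library of each per set, and a 24 hr replicate 2 set added an N-long KD library without a total KD partner. Another 4 libraries, of N-short knockdown (N-short KD), entered the fits so that all 11 shared the set terms and the estimate of spread; libraries labelled as controls stayed out. The labels do not give the guides, their target exons, or whether libraries came from separate cultures, so the p-values measure the spread between these samples, which may be technical. Library names carry the same tag for a knockdown in every set (g1 for total KD, g5 for N-long KD), so a difference between the knockdowns and one between the constructs behind these tags cannot be told apart. The library names of the 24 hr replicate 1 set start with 21c and those of the 48 hr and 96 hr sets with 23c, so that time and this prefix cannot be told apart either.

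RBFOX2 is an RNA-binding protein that recognises the motif GCAUG. It usually promotes inclusion of an alternative exon when bound in the intron downstream of it, and skipping when bound upstream. RBFOX2 is abundant in human embryonic stem cells, and many of its known target exons lie in genes of the actin cytoskeleton and membrane skeleton. The gene has alternative first exons far apart on the chromosome that give proteins with different N-termini.

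Each value below is a number of reads across annotated splice junctions. The 11 libraries held 9622841 to 14625040 junction reads, of which 97.8% to 98.3% lay on introns of GENCODE 29. Reads of a gene are given as CPM (junction reads scaled to library size with TMM factors, not corrected for length), so levels are compared between libraries and not between genes. A change was called at an adjusted p under 0.05 (edgeR quasi-likelihood F-test, Benjamini-Hochberg over all features tested), and fold changes are total KD over N-long KD. Values are given in the order 24 hr, 48 hr, 96 hr for total KD, and 24 hr replicate 1, 24 hr replicate 2, 48 hr, 96 hr for N-long KD. Pluripotency genes had a summed level of 4734 to 6549 CPM in total KD and 4380 to 5846 in N-long KD, with the intronless SOX2 not countable. Markers of other cells, in the same order, summed to 37.7 to 58.2 and 35.0 to 53.5 CPM for ectoderm, 41.8 to 89.6 and 41.8 to 103.3 for mesoderm, and 2.55 to 4.29 and 1.42 to 3.40 for endoderm. Trophoblast markers summed to 5.01 to 6.07 and 4.25 to 5.98 CPM, and fibroblast markers to 618 to 783 and 585 to 853. Members with no counted reads were 5 of 10 for ectoderm (among them SOX1, which has no intron) and 3 of 10 for endoderm (SOX17, FOXA1 and HNF4A). They were 3 of 10 for trophoblast (CDX2, ELF5 and HAND1) and 1 of 10 for fibroblasts (DCN). Of the 11 mesoderm symbols, 2 had no counted reads, HAND1 and T. T is an older symbol of TBXT, which is also among the 11 and had reads. In bulk libraries like these, fewer cells of a type and less RNA per cell cannot be told apart.

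The exons on which the results turn are shown first, as short blocks of coding sequence. The RBFOX2 exon is shown because fewer reads crossed both of its flanking introns in total KD, and the others because they were included less often in total KD, or for WIPI2 more often. Each line gives the exon in capitals with 15 bases of the neighbouring coding exons in lower case, as spliced in a GENCODE 29 transcript (GRCh38), 5′ to 3′. All of them but NSD2 are a multiple of 3 nt long.
RBFOX2 exon, 54 nt, chr22:35778025-35778078, minus strand: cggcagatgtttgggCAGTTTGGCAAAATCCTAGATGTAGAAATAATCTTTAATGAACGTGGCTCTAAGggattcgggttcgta
ENAH exon, 63 nt, chr1:225504991-225505053, minus strand: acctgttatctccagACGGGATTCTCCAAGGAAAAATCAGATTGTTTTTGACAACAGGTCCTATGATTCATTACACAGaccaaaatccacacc
EPB41 exon, 63 nt, chr1:29060422-29060484, plus strand: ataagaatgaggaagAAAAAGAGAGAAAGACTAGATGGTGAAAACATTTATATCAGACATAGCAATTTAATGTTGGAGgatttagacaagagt
ECT2 exon, 93 nt, chr3:172755483-172755575, plus strand: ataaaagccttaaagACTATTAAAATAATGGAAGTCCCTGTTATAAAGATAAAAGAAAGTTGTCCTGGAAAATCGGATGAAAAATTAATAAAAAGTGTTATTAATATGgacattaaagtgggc
GOLIM4 exon, 84 nt, chr3:168040786-168040869, minus strand: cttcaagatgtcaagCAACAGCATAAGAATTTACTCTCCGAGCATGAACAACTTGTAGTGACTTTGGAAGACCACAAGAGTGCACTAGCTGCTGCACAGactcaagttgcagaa
SLIT2 exon, 24 nt, chr4:20525149-20525172, plus strand: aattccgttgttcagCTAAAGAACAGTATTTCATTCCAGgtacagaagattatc
NSD2 exon, 82 nt, chr4:1938451-1938532, plus strand: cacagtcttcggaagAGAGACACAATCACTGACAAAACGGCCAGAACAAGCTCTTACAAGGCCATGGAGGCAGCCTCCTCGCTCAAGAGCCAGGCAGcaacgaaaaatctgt
WIPI2 exon, 54 nt, chr7:5193118-5193171, plus strand: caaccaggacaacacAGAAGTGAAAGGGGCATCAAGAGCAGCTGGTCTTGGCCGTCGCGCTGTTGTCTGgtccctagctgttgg

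RBFOX2 itself (chromosome 22, 35738736 to 36028425, minus strand) was at 50.9, 81.0 and 82.0 CPM in total KD and at 79.4, 77.7, 90.8 and 86.2 CPM in N-long KD. The 24 hr total KD library was the lowest of the 7, while the other two lay within the N-long KD range. Over all sets the gene did not pass the test (log2 fold change -0.26, SE 0.08, adjusted p = 0.094). The difference was larger in the 24 hr set than later: the log2 ratio was -0.64 at 24 hr, -0.17 at 48 hr and -0.07 at 96 hr, and a test of 24 hr against the later sets gave a difference of -0.58 (SE 0.10, adjusted p = 0.0031). That test was chosen after the data were seen, and its 24 hr side rests on 1 total KD library. RBFOX3, a paralog, stood at 24.9, 21.2 and 17.2 CPM in total KD and 19.1 to 23.9 CPM in N-long KD, and RBFOX1 did not exceed 2.23 CPM in these 7 libraries; neither passed the test.

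At single introns the picture was uneven along RBFOX2. Of its 16 junctions tested, 3 were lower in total KD and 0 higher, against 0.117% of all 119346 junctions called lower and 0.287% called higher. A pair of them flanked the 54-nt exon printed above, which encodes part of the RNA recognition motif. The intron downstream of this exon (35768350 to 35778024) had 30, 54 and 43 reads in total KD and 77, 59, 90 and 76 in N-long KD, and fell by 0.87 on the log2 scale (SE 0.16, adjusted p = 1.4e-04). The intron upstream of it (35778079 to 35781599) had 46, 107 and 80 reads against 121, 91, 157 and 125, and fell by 0.70 (SE 0.13, adjusted p = 1.3e-04). The junction that would skip the exon was listed with 1 read in the 48 hr total KD library and 0 in the other 10. From the next intron towards the 3′ end, the 9 remaining junctions had log2 fold changes of -0.28 to 0.17, and none passed the test. Without the 24 hr total KD library no RBFOX2 junction passed: the adjusted p was 0.13 for the downstream and 0.19 for the upstream intron.

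The other lower junction joined the next shared exon to the proximal first exon (35810005 to 35840191). It had 6, 13 and 17 reads in total KD and 45, 20, 19 and 35 in N-long KD, and fell by 1.33 on the log2 scale (SE 0.30, adjusted p = 0.0072). The groups did not overlap in reads, but in CPM the 96 hr total KD library (1.61) lay above the 48 hr N-long KD library (1.41). The call was lost without the total KD library of 24 hr (adjusted p = 0.51) or 48 hr (0.084), or without the N-long KD library of 24 hr replicate 1 (0.63) or 96 hr (0.090). The junction from the same exon to the distal alternative exon (35810005 to 35938846) had 20, 42 and 29 reads in total KD and 18, 20, 24 and 18 in N-long KD, with a log2 fold change of 0.60 that did not pass the test (SE 0.23, adjusted p = 0.45). Of the reads on this pair of junctions, the distal one took 76.9% (95% Wilson interval 57.9 to 89.0), 76.4% (63.7 to 85.6) and 63.0% (48.6 to 75.5) in total KD. In N-long KD it took 28.6% (18.9 to 40.7), 50% (35.2 to 64.8), 55.8% (41.1 to 69.6) and 34.0% (22.7 to 47.4). In the N-short KD libraries, given for scale, it took 81.0% to 92.9%. For this pair of junctions, every total KD library lay above every N-long KD library and below every N-short KD library. GENCODE 29 has the distal exon both as a first exon and as a second exon after a still more distal one. The intron between those 2 exons (35938898 to 36028239) had 5, 12 and 6 reads in total KD and 19, 16, 25 and 6 in N-long KD, with log2 ratios of -1.92, -1.13 and 0.28 by set. It did not pass the test (log2 fold change -1.12, SE 0.36, adjusted p = 0.22), and its estimate has the opposite sign to that of the distal junction. The labels do not say which first exon belongs to the N-long isoform.

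**Figure D1:**
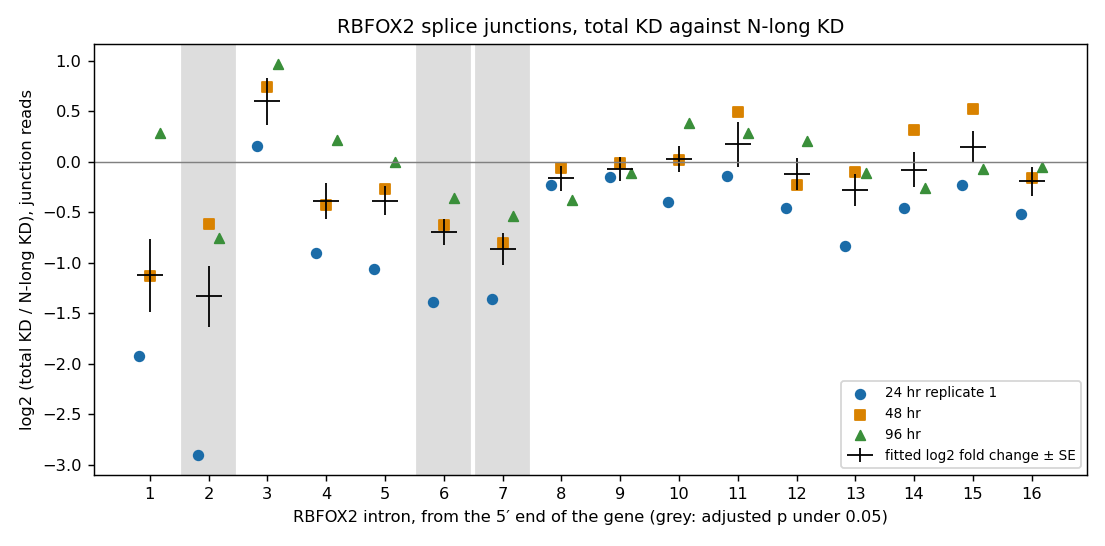
Log2 ratio of total KD to N-long KD junction reads (y axis) for the 16 RBFOX2 introns tested, numbered from the 5′ end (x axis), with 1 point per library set and the fitted log2 fold change with its SE in black. The introns with an adjusted p under 0.05 are shaded grey: intron 2 leads to the proximal first exon and introns 6 and 7 flank the 54-nt exon, while intron 3 leads to the distal alternative exon and intron 1 lies upstream of it.

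Splicing was read from cassette exons, which are either included or skipped. Of 6926 cassette exons tested, 21 were included less often in total KD than in N-long KD (0.303%) and 15 more often (0.217%), in 27 genes. Overlapping versions of an exon that share a skipping junction were counted apart. This was so in HNRNPC, POGZ, RPS24, SLC35B1, EIF4A2, PHF3, WIPI2 and FAM126A, so the 36 called exons are not all separate events. Of the 36 called exons, 34 moved in the same direction in all 3 sets, against 1795 of all 6926 tested. Calls were made on these same sets, so this agreement is largely built in. The other 2 called exons, in AP2M1 and SEPT7, rested on a junction that was listed with no reads in most libraries. They are described in the closing section. RBFOX-responsive exons have been described in the 30 genes of a list compiled with earlier results of these data known, and 76 exons in 27 of these genes were tested. Of these, 5 were lower and 0 higher, in FMNL3, EPB41, ENAH, ECT2 and GOLIM4. The median difference in inclusion over the 76 exons was -0.87 percentage points, against 0.30 over all exons tested. Most exon calls leaned on the 48 hr total KD library: without it 11 exons passed, all of them among the 36.

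Actin and membrane skeleton genes held several of these exons. ENAH, an actin regulator of the Ena/VASP family, included its 63-nt exon at 46.9%, 49.6% and 48.0% in total KD and at 64.2%, 68.1%, 69.5% and 61.2% in N-long KD. The groups did not overlap, and a single library's 95% Wilson interval was 7.61 to 9.55 points wide. The mean difference within sets was -16.8 points ± 3.36 (SD, n = 3 sets; log2 odds ratio -1.03, SE 0.11, adjusted p = 9.4e-10). In N-short KD the same exon stood at 69.2% to 84.5%.

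FMNL3, a formin that builds actin filaments, had a 115-nt exon (chr12:49646639-49646753) at 47.5%, 32.5% and 40.9% in total KD and 91.3%, 94.7%, 90.0% and 72.4% in N-long KD. The mean gap of -44.3 points ± 13.0 (SD, n = 3 sets; adjusted p = 1.2e-04) was the largest among the called exons with the same direction in all sets, but each library had just 19 to 40 reads on it and the call was lost without the 48 hr total KD library (adjusted p = 0.26). EPB41, or protein 4.1, links spectrin to actin in the membrane skeleton, and its 63-nt exon lies in the spectrin-actin binding domain. It was included at 35.1%, 13.0% and 28.9% in total KD and 59.1%, 53%, 35.9% and 39.1% in N-long KD (-19.0 points ± 7.67, SD, n = 3 sets, adjusted p = 0.0028). Its lowest N-long KD library was 35.9% and its highest total KD library 35.1%, and the call was lost without the 24 hr (adjusted p = 0.054) or 48 hr (0.41) total KD library. MPRIP, which targets myosin phosphatase to actin fibres, included a 63-nt exon (chr17:17180607-17180669) at 71.7%, 65.9% and 66.7% against 90.2%, 86.8%, 88.1% and 79.7%, without overlap (-17.9 points ± 4.65, adjusted p = 8.8e-07). The calls of ENAH and MPRIP were kept with each of the 11 libraries left out in turn.

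ECT2, the exchange factor that activates RhoA at cytokinesis, included its 93-nt exon at 66.0%, 48.5% and 60.6% in total KD and 81.3%, 79.6%, 61.0% and 79.5% in N-long KD. Within each set total KD was lower (-15.6 points ± 3.22, SD, n = 3 sets, adjusted p = 4.0e-05), although the 48 hr N-long KD library lay among the total KD values; the call was kept with each library left out in turn. GOLIM4, a Golgi membrane protein, went from 44.8%, 48.7%, 55.2% and 27.5% in N-long KD to 33.0%, 31.9% and 23.0% in total KD; its groups overlapped and its difference varied from -23.3 points at 48 hr to -4.50 at 96 hr (adjusted p = 0.034, and 1.0 without the 48 hr total KD library). Other exons of the list were lower without passing the test, such as the 24-nt exon of PICALM, a clathrin adaptor, at -9.87 points ± 2.49 (SD, n = 3 sets, adjusted p = 0.32). The 45-nt exon of MYO18A differed by -16.0 points ± 17.2 (SD, n = 3 sets, adjusted p = 0.16), but was higher in total KD by 3.79 points at 96 hr. Of the 76 exons tested in genes of the list, 27 moved in the same direction in all 3 sets.

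Several called exons lay outside that list. NSD2, a histone H3 lysine methyltransferase, included its 82-nt exon at 81.5%, 56.8% and 78.9% in total KD and 94.2%, 99.0%, 89.8% and 93.5% in N-long KD (-20.1 points ± 11.2, adjusted p = 5.6e-06); the exon is not a multiple of 3 nt, so its skipping shifts the reading frame. Without the 48 hr total KD library the adjusted p was 0.22. PROM1, the membrane glycoprotein also called CD133, skipped a 69-nt exon (chr4:15979395-15979463) in 3 of 37, 8 of 61 and 8 of 31 reads in total KD. In N-long KD there were 0 skipping reads of 52, 49, 88 and 48, which allow shares of up to 5.77%, 6.12%, 3.41% and 6.25% (adjusted p = 1.3e-04, and 0.067 without the 48 hr total KD library). SLIT2, a secreted guidance ligand, included its 24-nt exon at 77.3%, 84.8% and 75.0% against 94.1%, 97.4%, 100% and 92.6% (-16.5 points ± 1.25, adjusted p = 0.026), a call lost in 8 of the fits that left out a library. FAM126A, part of a lipid kinase complex at the plasma membrane, PHF3, which binds the tail of RNA polymerase II, and SLC35B1, a nucleotide transporter, held exons lower by differences of -17.6, -14.8 and -11.1 points, with no overlap between the groups. Of these, FAM126A kept its call with each library left out in turn, while without the 48 hr total KD library PHF3 had an adjusted p of 0.86 and SLC35B1 of 0.56. PCBP2, an RNA-binding protein for C-rich sequence, had a 39-nt exon at 60.6%, 44.4% and 50% against 64.3%, 65.8%, 53.2% and 66.5% (-9.71 points ± 6.5, adjusted p = 9.9e-07), where the groups overlapped.

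Exons included more often in total KD moved by smaller steps, with some exceptions. WIPI2, a lipid-binding protein of autophagosome formation, included its 54-nt exon at 77.4%, 75.0% and 79.6% in total KD and 60.3%, 46.3%, 54.4% and 59.8% in N-long KD (19.2 points ± 1.83, SD, n = 3 sets, adjusted p = 0.0058). RHOT1, a mitochondrial transport GTPase, included a 96-nt exon (chr17:32209350-32209445) at 48.6%, 42.9% and 47.0% against 30.4%, 22.1%, 26.7% and 34.7% (15.5 points ± 3.03, adjusted p = 0.031). In both genes every total KD library was above every N-long KD library, and at neither exon was the call kept when the smaller of the 2 inclusion junctions was counted in place of their mean (adjusted p = 0.071 for WIPI2 and 0.26 for RHOT1) or when the 48 hr total KD library was left out (0.26 and 0.54). An exon of EIF4A2, a helicase of translation, was higher by 6.18 points, and exons of HNRNPC and SRSF7, both splicing factors, by 5.18 and 4.71 points. TPM1, a tropomyosin of actin filaments, rose by 5.99 points and TMPO, a protein of the nuclear lamina, by 6.58, although in TMPO 1 inclusion junction had 6 to 18 reads and the other 238 to 396. Of these, TPM1 and TMPO lost their calls without the 48 hr total KD library (adjusted p = 0.67 and 0.86), and EIF4A2 kept its call with each library left out in turn. The lower exons had a median length of 93 nt and the higher ones of 96 nt, against 106 nt over all exons tested. Of the 36 called exons, 20 (55.6%) were a multiple of 3 nt long, against 46.4%. These values count overlapping versions of an exon apart.

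**Figure D2:**
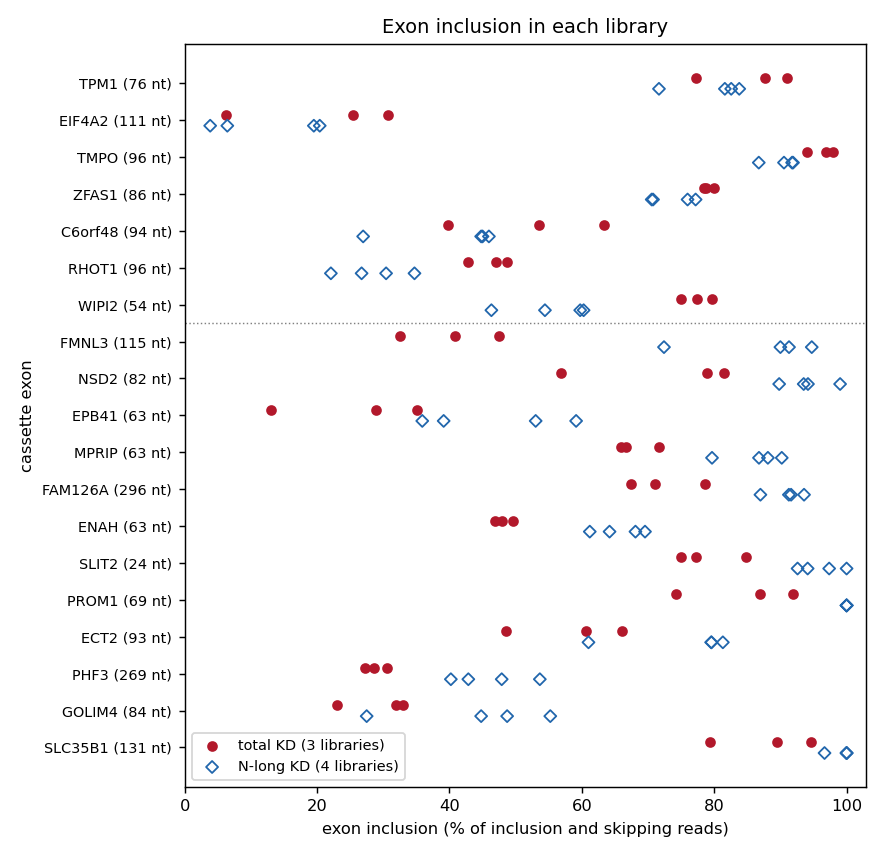
Inclusion (x axis, percent of inclusion and skipping reads) of 19 called exons with the largest differences (y axis, with exon length), as 1 point per library, with exons more included in total KD above the dotted line. FMNL3, ENAH, MPRIP and WIPI2 show no overlap between the 3 total KD and 4 N-long KD libraries, while ECT2, GOLIM4, C6orf48, EIF4A2 and TPM1 do.

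The genes were also compared by their level. ENAH had a log2 fold change of -0.01, EPB41 of 0.03, MPRIP of -0.01, GOLIM4 of 0.04 and ECT2 of -0.07 in junction reads per gene, and none passed the test. Of the 27 genes with a called exon, 6 were also called at the gene level, against 98 of the 3929 genes with a tested exon. NSD2 (-0.38), PROM1 (-0.36), FAM126A (-0.15) and EIF4A2 (-0.15) were lower, and C6orf48 (0.38) and ZFAS1 (0.18) higher. Reads on an exon's own junctions enter the gene level, and inclusion uses more junctions than skipping. The gene and exon calls are therefore not independent. NSD2 was at 152, 161 and 129 CPM in total KD and 191, 209, 205 and 177 in N-long KD, without overlap (SE 0.04, adjusted p = 2.6e-07).

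Among all 13316 genes tested, 130 were higher in total KD than in N-long KD (0.976%) and 122 lower (0.916%), and 246 of these 252 moved the same way in all 3 sets. The 252 had been picked by their call in these same sets, so this agreement is largely built in. The changes were mostly small: the median was 0.35 on the log2 scale for the higher genes and -0.20 for the lower ones, and 17 genes differed by a log2 fold change of 1 or more, 15 of them higher. The count leans on the term for library set, without which 3 genes, 0 exons and 0 RBFOX2 junctions passed the test, and on the 48 hr libraries: 106 genes passed without that of total KD and 126 without that of N-long KD, and 162 without the 24 hr replicate 1 library of N-long KD.

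**Figure D3:**
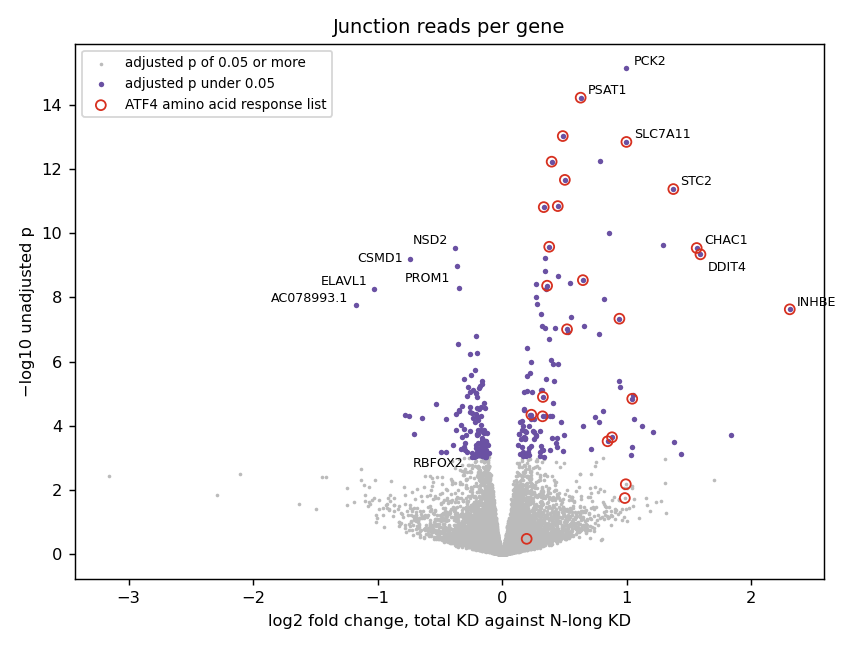
Log2 fold change of total KD against N-long KD (x axis) and -log10 of the unadjusted p (y axis) for the 13316 genes tested, with called genes in purple and the genes of the ATF4 amino acid response list circled in red. The circled genes lie to the right of 0, ELAVL1, AC078993.1, CSMD1, NSD2 and PROM1 to the left, and RBFOX2 among the genes that did not pass the test.

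Genes of the amino acid response had most of the smallest p-values. ATF4 is a transcription factor whose translation rises when the initiation factor eIF2 is phosphorylated, as in amino acid shortage. It switches on genes for amino acid synthesis, amino acid transport and the charging of tRNA, along with stress regulators. Of 25 genes of this list that passed the filter on low counts, 22 were higher in total KD and 0 lower, against 0.976% of all genes called higher; the list was compiled with earlier results of these data known. Their median log2 fold change was 0.63, against 0.00082 over all genes, and the median log2 ratio within sets was 0.58 at 24 hr, 0.55 at 48 hr and 0.49 at 96 hr. In 14 of the 22, every total KD library was above every N-long KD library. The same count was not made over all genes, and the 22 had been picked by their call. The 14 therefore describe these genes and do not set the list apart.

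Among the regulators, ATF4 itself was higher by 0.23 on the log2 scale (SE 0.05; adjusted p = 0.0060). Its relatives ATF5 and ATF3 rose by 1.04 and 0.88. ATF5 was at 9.15, 7.72 and 8.93 CPM in total KD and 5.22, 4.05, 2.42 and 5.18 in N-long KD, so the groups did not overlap, although the call was lost without the 48 hr total KD library (adjusted p = 0.083). CHAC1, which degrades glutathione, was at 14.1, 7.93 and 8.34 CPM against 3.97, 3.44, 2.87 and 2.92, so that it rose by 1.56 on the log2 scale (SE 0.16; adjusted p = 2.6e-07). INHBE, which encodes an inhibin beta subunit, had the largest rise on the list, from 0.38 to 1.03 CPM in N-long KD to 2.64 to 4.68 CPM in total KD (log2 fold change 2.31, SE 0.30, adjusted p = 9.5e-06), at low counts. DDIT4, an inhibitor of mTORC1 signalling, was at 12.4, 19.4 and 6.77 CPM against 2.79, 12.7, 8.78 and 2.43; it was higher in each set (log2 fold change 1.59), but its groups overlapped. STC2, a secreted stanniocalcin also on the list, rose by 1.37 without overlap between the groups. The 3 genes of the list that did not pass were DDIT3, CEBPG and ASNS.

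ASNS, asparagine synthetase, shares its main introns with a second annotated gene, AC079781.5, so most of its reads were not in the gene table. Counted over these introns, ASNS stood at 334, 471 and 238 CPM in total KD and 198, 156, 231 and 133 in N-long KD; in N-short KD it was at 122 to 203 CPM. Each of its 12 junctions tested was higher in total KD, with log2 fold changes of 0.76 to 1.05.

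Genes of serine synthesis and the folate cycle were among those that rose. PSAT1, an enzyme of serine synthesis, was at 461, 508 and 407 CPM in total KD and 308, 264, 292 and 289 in N-long KD (log2 fold change 0.63, SE 0.04, adjusted p = 4.1e-11). PHGDH and PSPH, its partners in the same pathway, rose by 0.33 and 0.32. SHMT2 and MTHFD2, which feed serine into the mitochondrial folate cycle, rose by 0.49 and 0.50, and ALDH1L2, a mitochondrial folate enzyme outside the list, by 1.29. PCK2, mitochondrial PEP carboxykinase, was not on the list but had the smallest p of all genes: 104, 106 and 72.5 CPM against 48.6, 50, 50.8 and 42.0 (log2 fold change 1.00, SE 0.06, adjusted p = 9.9e-12). ASS1, argininosuccinate synthase, and GPT2, an alanine transaminase, were higher by 0.78 and 0.42.

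Several amino acid transporters rose too, while others fell. SLC38A4 was lower by a log2 fold change of -0.35 (adjusted p = 0.0047) and SLC36A4 by -0.33 (adjusted p = 0.0097). SLC7A11, the cystine carrier, was at 72.5, 74.6 and 72.4 CPM in total KD and 34.9, 26.7, 34.5 and 42.3 in N-long KD (log2 fold change 1.00, SE 0.08, adjusted p = 4.8e-10). SLC7A5 and SLC3A2, which form the carrier for large neutral amino acids, rose by 0.65 and 0.45. Among carriers outside the list, SLC1A4 rose by 1.06 (adjusted p = 0.0071, and 0.12 without the 48 hr total KD library). SLC6A9, SLC1A5 and SLC7A3, picked after their values were seen, rose by 0.65, 0.35 and 0.34. Aminoacyl-tRNA synthetases were counted as a family after the results were seen. Of 20 genes for cytosolic enzymes, 9 were higher and 0 lower, against 0.976% of all genes called higher. The 9 had log2 fold changes of 0.20 (EPRS) to 0.40 (AARS), and AARS, CARS and WARS among them are also on the ATF4 list. Of 15 genes tested that encode only mitochondrial enzymes, 0 passed the test in either direction. AARS, the alanine enzyme, was at 533, 646 and 488 CPM against 413, 413, 473 and 385, without overlap.

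**Figure D4:**
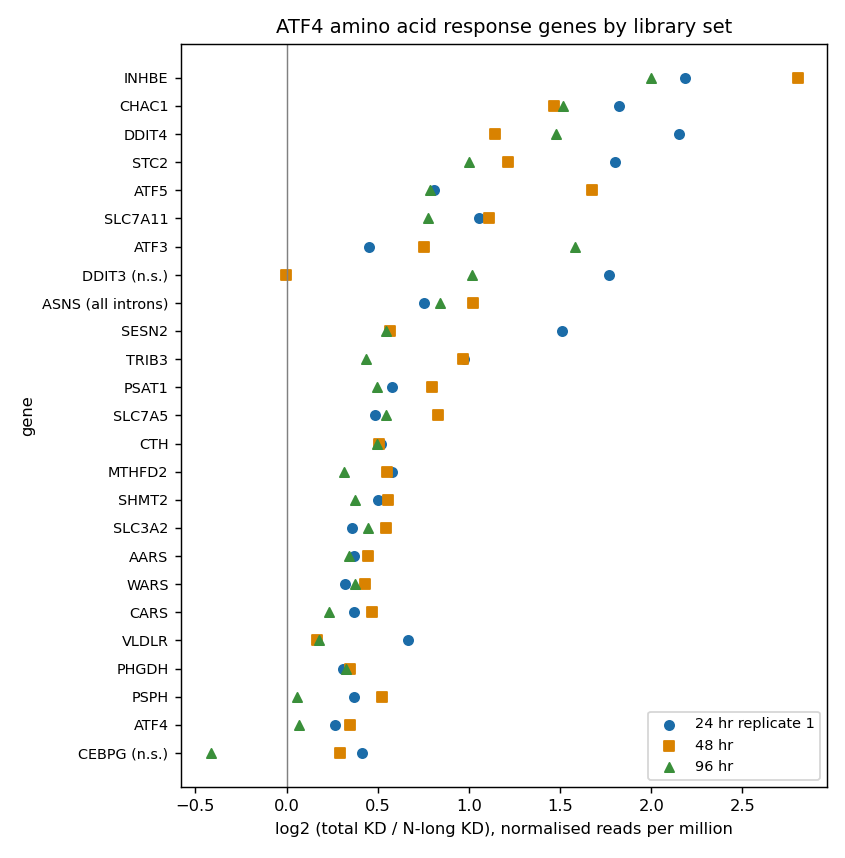
Log2 ratio of total KD to N-long KD (x axis) for the 25 genes of the ATF4 amino acid response list (y axis), with 1 point per library set. Genes that did not pass the test are marked n.s., other than ASNS. ASNS is counted over the introns it shares with AC079781.5, and it carries no mark because that sum was not tested. Points lie above 0 in every set for all genes shown other than DDIT3 and CEBPG.

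The promoters of these genes were searched for TGATGNAA, the core of the composite element that ATF4 binds together with C/EBP factors, on both strands in the 250 bases before the start (RefSeq promoters, build GRCh38.p14). It occurred in 5 of 34 promoters of the 25 genes tested (14.7%; some genes have several promoters) and in 13 of 187 promoters of genes higher in total KD (6.95%). It occurred in 1 of 143 promoters of lower genes (0.699%). It occurred in 264 of 15215 promoters of all genes tested (1.74%), and in 3.14% of all 35116 RefSeq promoters. Among higher genes outside the list it occurred in 10 of 159 (6.29%). The 5 matches of the list lay before ATF3, ASNS, CHAC1, CEBPG and AARS. Of these genes, CEBPG (log2 fold change 0.20, adjusted p = 0.77) did not pass the test. Neither did ASNS, whose main introns are left out of the gene level. A match is a description of the letters and not a measured binding site. The windows around 3 of the matches are printed with the match in capitals, 48 bases each and all upstream of the start.
ASNS, chr7:97872449-97872496, minus strand: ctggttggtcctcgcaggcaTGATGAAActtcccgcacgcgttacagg
CHAC1, chr15:40953242-40953289, plus strand, motif on the opposite strand: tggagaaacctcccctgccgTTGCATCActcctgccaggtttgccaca
AARS, chr16:70289666-70289713, minus strand, motif on the opposite strand: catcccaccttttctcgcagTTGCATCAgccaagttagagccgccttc

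Also outside the ATF4 list, VEGFA, the angiogenic growth factor, was at 27.2, 33.6 and 20.7 CPM in total KD and 14.6, 17.6, 19.4 and 12 in N-long KD (log2 fold change 0.86, SE 0.09, adjusted p = 1.2e-07). DDR2, a collagen receptor kinase, rose by 1.12, with no overlap between groups; its call was lost without the 24 hr (adjusted p = 0.074) or 48 hr (0.11) total KD library. TM6SF1, PNMA2, CDC42EP1 and PEX5L also stood among the 12 largest rises (1.05 to 1.83), at 6.15 CPM or less in each of the 7 libraries, and none of the 4 kept its call without the 48 hr total KD library (adjusted p = 0.060 to 0.22).

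ELAVL1, which encodes the RNA-binding protein HuR that stabilises mRNAs with AU-rich elements, had the second largest fall among the called genes. It was at 26.9, 51.4 and 63.8 CPM in total KD and 99.8, 94.3, 83.3 and 101 in N-long KD, so no total KD library reached the N-long KD range. Its log2 fold change was -1.03 (SE 0.12, adjusted p = 2.6e-06), and 5 of its 5 junctions were lower, by log2 fold changes of -1.15 to -0.84, so the fall spanned the gene. It was deepest at 24 hr, with a log2 ratio of -1.89, against -0.70 at 48 hr and -0.66 at 96 hr (difference -1.24, SE 0.10, adjusted p = 1.1e-09). Of 12 genes tested on a list of binders of AU-rich elements, ELAVL1 was the 1 that was lower, and 0 were higher (median log2 fold change -0.02).

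The remaining large falls were mostly of low or variable genes. AC078993.1, annotated as an antisense gene and counted on its own strand, was at 2.34, 9.07 and 5.69 CPM in total KD and 2.79, 3.54, 22.8 and 14.9 in N-long KD (log2 fold change -1.18). CSMD1, a large membrane protein, ranged from 11.7 to 124 CPM in total KD and 13.2 to 213 in N-long KD, so the sets differed far more than the knockdowns within a set (log2 fold change -0.74). POU2F2, a transcription factor, was at 4.03, 3.79 and 4.42 CPM against 6.32, 6.17, 7.11 and 7.69, without overlap (log2 fold change -0.78, SE 0.16, adjusted p = 0.0060, and 0.084 without the 48 hr total KD library). ADAMTS6, a matrix protease, and MTFR1L, a mitochondrial protein, were also lower without overlap, by log2 fold changes of -0.71 and -0.46. GABRP, TRIM22, CUBN and INPP5D fell by 0.75, 0.53, 0.49 and 0.45 with overlapping groups, and CBWD5 by 0.64, which is uncertain because near-identical copies of this gene share its reads. ADAMTS6, MTFR1L, GABRP, TRIM22, CUBN, INPP5D and CBWD5 each lost the call without the 48 hr total KD library (adjusted p = 0.056 to 0.65).

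The other lists held few called genes. Over all genes tested, 0.976% were called higher and 0.916% lower, and in lists this short 1 or 2 calls already exceed these shares. Of 36 other splicing regulators tested, 2 were lower (ELAVL1, and SRSF5 by 0.13 on the log2 scale) and 0 higher. The 32 cytoskeleton genes had 0 called in either direction, with SPTBN1, a spectrin, nearest at -0.12 (adjusted p = 0.061), and of the 30 genes with RBFOX-responsive exons 1 was lower, NBEA, a scaffold of membrane traffic (-0.15). On the list of the unfolded protein response of the endoplasmic reticulum, 1 of 18 was higher, HERPUD1, a factor of protein degradation there (0.40), and 2 lower, the chaperones HSP90B1 (-0.12) and PDIA4 (-0.14). Of 20 p53 targets, 1 was lower (CCNG1, a cyclin, -0.16); of 13 interferon response genes tested, 0 were called. Among 19 pluripotency genes, 1 was higher, the DNA methyltransferase DNMT3B (0.16). Markers of ectoderm, mesoderm, endoderm, trophoblast and fibroblasts had 0 called of 17 tested. The calls of SRSF5, NBEA, HERPUD1, HSP90B1, PDIA4, CCNG1 and DNMT3B were lost without the 48 hr total KD library (adjusted p = 0.12 to 0.35).

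For some genes the ratio of total KD to N-long KD differed between the 24 hr set and the later sets. In a test of the 24 hr set against the mean of the 48 hr and 96 hr sets, chosen after the data were seen, 14 genes passed at an adjusted p under 0.05, and in all 14 the total KD to N-long KD ratio was lower at 24 hr. Besides ELAVL1 and RBFOX2, they included HMGCS1, SQLE, FDFT1 and ACAT2, enzymes of sterol synthesis. HMGCS1, which makes the precursor of mevalonate, was at 338 CPM in total KD and 448 in N-long KD at 24 hr, at 479 and 463 at 48 hr, and at 541 and 511 at 96 hr. Its log2 ratio at 24 hr was thus -0.40, and its difference from the later sets -0.44 (SE 0.05, adjusted p = 6.5e-06). Of 23 genes of sterol synthesis and uptake, a family counted after the results were seen, 21 had a ratio below 1 at 24 hr, 9 at 48 hr and 11 at 96 hr, and 0 were called over all sets. The family's median log2 ratio was -0.19, 0.026 and 0.00087 in these sets, against 0.00030, -0.0032 and 0.0031 over all genes. The family includes the sterol enzymes named above, so its 24 hr values are in part built in. The chaperones HSPA8 and HSP90AA1 followed the same course, with differences of -0.27 and -0.22. None of the genes of the ATF4 list was among the 14. The 24 hr side of these differences rests on the set with the other library-name prefix and on 1 total KD library. A ratio can also move with its N-long KD side. In the 24 hr replicate 1 and replicate 2 N-long KD libraries, HSPA8 was at 2110 and 1525 CPM, and HMGCS1 at 448 and 465 CPM.

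**Figure D5:**
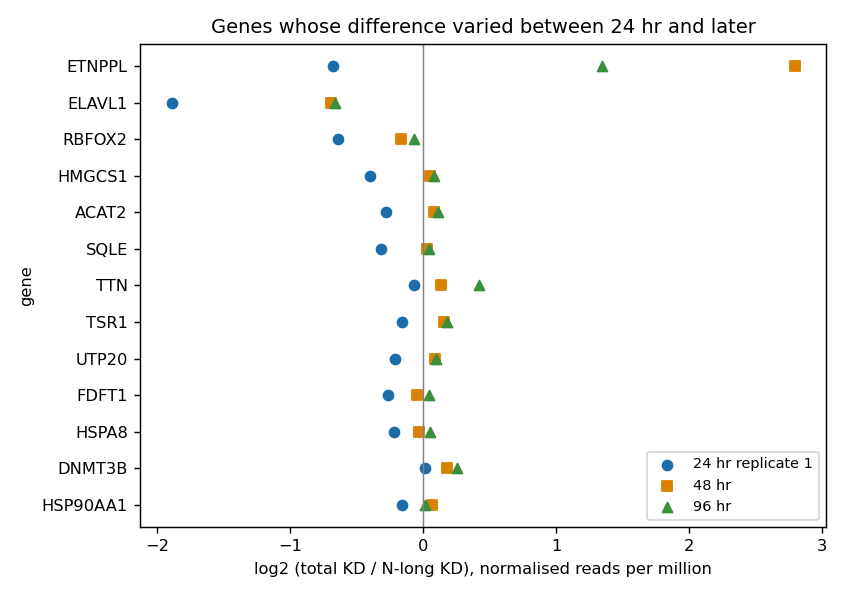
Log2 ratio of total KD to N-long KD (x axis) in each library set for 13 genes (y axis) whose ratio at 24 hr differed from that at 48 and 96 hr at an adjusted p under 0.05. For ELAVL1 all 3 points lie below 0, while for HMGCS1, ACAT2 and SQLE only the 24 hr point does.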

How the data were processed

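The 7 libraries compared, and the 4 N-short KD libraries fitted with them, were ribosomal RNA-depleted total RNA. The authors deposited 1 table of raw read counts per splice junction for each library; aligner settings and filters are not given in the sources used here. The submitters' processing notes name STAR 2.7.1, SAMtools 1.9 and build hg38. Introns were matched, with strand, to GENCODE 29, and counts on introns of 1 gene name were summed per gene (94.4% to 94.8% of reads). Cassette exons up to 1000 nt had both inclusion junctions and the skipping junction annotated; inclusion was counted as the mean of both inclusion junctions, rounded. Exons averaging 20 or more reads with a pooled inclusion of 2% to 98% were tested.

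edgeR 4.0.16 in R 4.3.3 fitted 11 libraries (TMM, filterByExpr, quasi-likelihood F-test) with terms for library set and knockdown; exons had inclusion and skipping reads as paired columns. The set term is the replicate block: residuals of libraries correlated with a median of 0.51 within sets (10 pairs, lowest 0.37) and -0.19 between sets (30 pairs), and the replicate numbers and times in the labels name the sets. SE is the absolute log2 fold change over the root of F. Intervals and the floor of 3 counts at 0 cover counting error only. The fits were tested on simulated data.

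The members, the gene lists and the comparison were chosen with earlier results of these data known. Named genes were RBFOX2, the 12 largest rises and falls called with 1 direction in all sets, and up to 4 genes per list with the smallest p; named exons were the 12 lower and 8 higher with the largest differences, and exons of the RBFOX list. PCK2, ASS1, GPT2, VEGFA, SLC6A9, SLC1A5, SLC7A3, the families, the other called exons and the genes of the 24 hr test were named after their values were seen. DESeq2 1.42.0, limma 3.58.1, other scalings, filters, library choices and left-out libraries were alternatives. Figures used matplotlib 3.10.9. Some items are not reported here.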

Additional observations from a re-analysis of the deposited data

Results flagged for a closer look

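In 8 of 75 groups of 4 N-long KD libraries examined for named genes and exons, 1 library stood apart from the other 3 by Dixon's criterion, which chance meets in about 1 of 20 groups. In 7 of them it was the 48 hr library: TRIM22, a restriction factor, was at 59.5 CPM there against 15.2 to 19.8 in the other 3, and INPP5D, a lipid phosphatase, at 33.0 against 17.9 to 19.6. The tRNA synthetases GARS and NARS were low there, at 383 CPM against 465 to 477 and at 338 against 402 to 413. At exons, the 48 hr N-long KD library included the ECT2 exon at 61.0% against 79.5% to 81.3%, the SLC35B1 exon at 96.7% against 100% in each of the others, and the C6orf48 exon at 27.0% against 44.8% to 46.0%. GPT2 was at 65.5 CPM in the 24 hr replicate 1 library against 55.5 to 57.2 in the others. The 4 libraries belong to different sets, and the rate of 1 in 20 assumes sets that do not differ. For the ECT2 exon the 48 hr library was also the lowest in N-short KD (77.7% against 88.7% to 89.9%) and total KD (48.5% against 60.6% and 66.0%). The C6orf48 exon was alike (31.7% against 43.0% to 52%, and 39.8% against 53.5% and 63.4%). For SLC35B1 the lowest N-short KD library was that of 96 hr (91.3%).

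The ratio of total KD to N-long KD at 24 hr differed from the later sets in 14 genes, 13 of which are named here. On the log2 scale the difference was -2.99 for ETNPPL, a lipid enzyme, -1.24 for ELAVL1, -0.58 for RBFOX2, -0.44 for HMGCS1, -0.39 for TTN, -0.35 for SQLE and -0.31 for ACAT2. It was -0.32 for UTP20 and -0.31 for TSR1, both factors of ribosome assembly, -0.27 for HSPA8, -0.25 for FDFT1, -0.25 for DNMT3B and -0.22 for HSP90AA1. ETNPPL was at 1.61, 13.1 and 4.12 CPM in total KD and 2.57, 2.73, 1.89 and 1.62 in N-long KD, so it was lower in total KD at 24 hr and higher later.

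Exons of 2 genes differed between 24 hr and later, by log2 odds of 12.2 in AP2M1 and -5.64 in CBWD5. The 97-nt AP2M1 exon was at 96.1% in the 24 hr total KD library, 96.6% in the 24 hr replicate 2 N-long KD library and 0% in the other 5. Its upstream junction had 892 and 625 reads in those 2 libraries and 0 in the others, while its downstream junction had at most 1 read in each of the 7. The called SEPT7 exon was alike: its upstream junction had 66 reads in the 24 hr replicate 1 N-long KD library and 0 in the other 6. Neither exon's inclusion is backed by both of its junctions, and without them 34 exons were called.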

How the results depend on the processing

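Without the replicate block (no term for library set), 3 genes, 0 exons and 0 RBFOX2 junctions were called, against 252, 36 and 3 with it; at an unadjusted p under 0.05 there were 249 genes, 202 exons and 5 junctions. With time point in place of library set, 33 genes and 17 exons passed. DESeq2 called 157 genes, the 7 libraries of total KD and N-long KD alone 148, and limma on log2 ratios 0 exons (463 at an unadjusted p under 0.05). Leaving out 1 library at a time gave 106 to 263 genes, 11 to 37 exons and 0 to 3 RBFOX2 junctions; the lowest counts of genes and exons came without the 48 hr total KD library, and 0 junctions without the 24 hr one. RBFOX2 as a gene passed the test with no filter on low counts (log2 fold change -0.26, adjusted p = 2.1e-04) and, among left-out libraries, without the 96 hr total KD library (range -0.37 to -0.077; adjusted p 0.0094 to 0.65). No result reversed in any of these fits: of 74 named calls, 32 were kept in every left-out fit, 27 of 51 with DESeq2 and 3 of 74 without the block. Counts of 19 to 40 reads limit FMNL3 and 31 to 88 limit PROM1.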

Other observations

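Basement membrane genes, a family counted after the results were seen, were lower in part: of 24 tested, 7 were lower in total KD than in N-long KD and 0 higher, with a median log2 fold change of -0.10. COL4A5 and COL4A6, collagen IV chains that lie next to each other on the X chromosome, had log2 fold changes of -0.35 and -0.32. HSPG2, which encodes perlecan, had -0.26 and LAMC1, a laminin chain, -0.15. COL4A5 was at 152, 229 and 147 CPM in total KD and 188, 248, 301 and 175 in N-long KD, higher in N-long KD within each set although the groups overlapped. Of 35 genes of mitotic chromosomes and the spindle, also counted afterwards, 11 were lower and 0 higher (median -0.08), among them MKI67 (-0.20) and TOP2A (-0.14). Genes called lower made up 0.916% of all tested.

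Of 16 host genes of small nucleolar RNAs tested, a family counted in the same way, 5 were higher and 1 lower, against 0.976% of all genes tested called higher and 0.916% lower. GAS5 rose by 0.28 on the log2 scale, from 457 to 728 CPM in N-long KD to 529 to 857 in total KD with overlapping groups, and SNHG16 fell by 0.23. In C6orf48 and ZFAS1, both in this family, the gene and an exon were called higher together: the 94-nt C6orf48 exon was at 53.5%, 39.8% and 63.4% in total KD and 46.0%, 45.0%, 27.0% and 44.8% in N-long KD. Both exon calls were lost without the 48 hr total KD library (adjusted p = 0.56 for C6orf48 and 0.61 for ZFAS1), and in 7 and 5 of the 11 fits that left out a library. The gene level counts the reads on these exons' own junctions, so the gene and exon calls are not independent.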
